A study of Mus musculus with 2 samples.

Results

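Beta cells with a high mitochondrial share are the insulin-producing cells of the mouse islet in which an unusually large part of the RNA molecules came from the mitochondrial genome. They were chosen by rule from the deposited counts. A cell was a beta cell when Ins1 and Ins2 together made up at least 25% of its unique molecular identifiers (UMIs, each standing for 1 captured RNA molecule), with Gcg below 3%, Sst below 1% and Ppy below 2%. It was a member when the 13 mitochondrially encoded genes, whose symbols begin with mt-, held more than 5% and at most 10% of its UMIs. The rule found 565 members among 6019 beta cells and 8698 barcodes in all. Of these, 490 were in the wild type library and 75 in the transgenic library. They are compared with the beta cells of the same library at an mt- share of 5% or less, which numbered 2805 and 2632 and are called low-mitochondrial beta cells here. A further 12 and 5 beta cells had shares above 10% and were left out.

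The study sequenced single islet cells of C57BL/6 mice at postnatal day 70. One group was wild type, and the other overexpressed the microRNA miR-503 in its beta cells. Neither the promoter driving the transgene nor the number of mice per library is named in the labels. Each genotype had 1 library, so no difference between genotypes has a replicate check, and cells of 1 library are not replicates. No test was therefore run. Each ratio of summed counts has an exact 95% interval that covers counting error only. Intervals within bins of cells, and those of differences between ratios, are approximate.

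Mitochondria keep a small genome of their own, which encodes core subunits of the respiratory chain, while most mitochondrial proteins are encoded in the nucleus and imported. Beta cells depend on mitochondrial metabolism, because the ATP made from glucose closes potassium channels and starts insulin release. A high mt- share in a single-cell library can accompany many mitochondria, damaged cells that have lost cytoplasmic RNA, or little RNA of other kinds, and the share does not separate these.

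The wild type library held 4540 barcodes and the transgenic library 4158, with medians of 21652 and 24748.5 UMIs per barcode. The libraries shared 25 barcode sequences, none of them a member in both. Among alpha cells, taken as cells with Gcg at 10% of UMIs or more and insulin below 10%, only 5 of 443 and 2 of 670 had an mt- share between 5% and 10%, too few for a comparison with the beta cells.

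Members made up 14.9% (13.7 to 16.1, Clopper-Pearson) of wild type beta cells at 10% mt- or less, and 2.77% (2.19 to 3.46) of transgenic ones. Their mt- shares ran from 5.00% to 9.90% with a median of 5.92% in the wild type, and from 5.01% to 9.73% with a median of 5.67% in the transgenic library. The low-mitochondrial beta cells had medians of 2.97% and 2.01%. Members formed no separate group: 55.3% and 61.3% of them lay between 5% and 6%, and the shares ran on without a gap across the threshold. These shares describe the rule and are no finding.

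**Figure D1:**
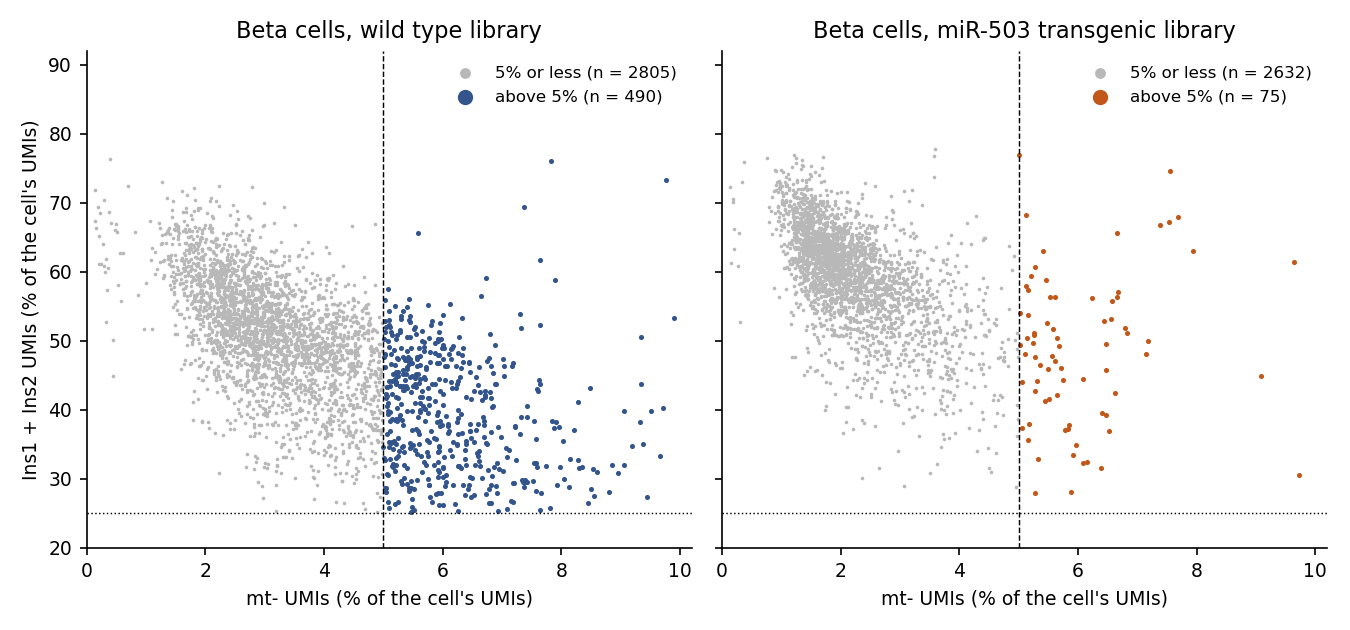
Each point is a beta cell at 10% mt- or less, with its mitochondrial share of UMIs (%) on the x axis and its insulin share (%) on the y axis, in the wild type (left) and transgenic (right) library. Coloured points are the 490 and 75 members and grey points the 2805 and 2632 low-mitochondrial beta cells; the dashed line is the threshold of 5%, the dotted line the insulin minimum of 25%, and the cloud slopes downward across both panels.

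Members held less insulin RNA. The median insulin share was 39.5% in members and 51.7% in low-mitochondrial beta cells of the wild type library, and 49.3% and 60.5% in the transgenic library. Insulin stands in the denominator of the mt- share and in the beta cell rule, so this difference is partly built into the choice of cells. Across single beta cells the mt- share and the insulin share had a Pearson correlation of -0.63 over 3295 wild type and -0.58 over 2707 transgenic cells, as a description, since both are shares of the same UMIs. With the mt- share taken over UMIs outside insulin the values were -0.23 and -0.17.

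Counted as molecules, a wild type member had on average 1150 mt- UMIs and 7419 insulin UMIs, against 780 and 13895 in a low-mitochondrial beta cell. A transgenic member had 1126 and 9030, against 679 and 19441. Both counts enter the share that chose the members, so these values describe the choice and are no finding. UMIs from all other genes had medians of 9761 against 11070 in the wild type and 9002 against 11157.5 in the transgenic library. Detected genes had medians of 3367.5 against 3469 and 3190 against 3442, so most members were not low-complexity droplets. Those under 2000 genes were 14 of 490 in the wild type, close to the 76 of 2805 low-mitochondrial cells, but 12 of 75 in the transgenic library, against 33 of 2632.

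The markers of beta cells were present in members. Levels are given as CPM, counts per 1000000 UMIs outside Ins1, Ins2 and the mt- genes. Ucn3, a hormone of mature beta cells, stood at 522 CPM in members and 541 CPM in low-mitochondrial cells of the wild type library, and at 483 and 470 CPM in the transgenic library. Slc2a2, the glucose transporter, stood at 201 and 184 CPM, and at 187 and 140 CPM. Markers of other islet cells that the rule did not use had lower sums in members. Without Gcg, the other 8 alpha markers summed to 2172 against 2896 CPM in the wild type and 3416 against 4413 CPM in the transgenic library, most of it Ttr, which beta cells also express. Taken singly, 4 of the 8 in the wild type and 2 of the 8 in the transgenic library stood higher in members. The sums of the delta markers without Sst were 49.9 against 68.7 CPM and 57.7 against 75.9 CPM, and those of the gamma markers without Ppy 997 against 1349 CPM and 1200.4 against 1424 CPM. The B cell list stood at 85.1 against 144 CPM and at 85.0 against 156 CPM, and the macrophage list at 70.0 against 100 CPM and at 63.7 against 103 CPM, with Csf1r at 0 in transgenic members. Only the T cell list in the wild type (0.597 against 0.330 CPM), and the stellate, Schwann and red blood cell lists in the transgenic library (63.7 against 50.9 CPM for the largest, red blood cells), had a higher sum in members. Scrublet's top 4% of doublet scores held 5 wild type and 2 transgenic members.

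The mitochondrial transcripts themselves chose the members, so their make-up is given as a description, with no test. In wild type members mt-Co1, a core subunit of cytochrome oxidase, held 20.6% of mt- UMIs, against 22.4% in low-mitochondrial beta cells. In transgenic members it held 20.04%, against 22.4%. mt-Cytb, the mitochondrially encoded subunit of complex III, held 9.16% against 9.61% and 9.24% against 9.62%. mt-Nd1, a subunit of complex I, held 7.90% against 7.76% and 7.96% against 7.71%. mt-Nd2, also of complex I, held 4.34% against 3.70% and 4.27% against 3.93%. mt-Nd6, the only protein gene of the light strand, had 41 and 3 UMIs in members, too few to place.

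Outside insulin and the mt- genes, 6343 genes had at least 100 UMIs over both sets of cells and at least 20 CPM in at least 1 of them, in each library. A gene was called higher or lower when its level was at least 25% higher or 20% lower in members and the counting interval excluded no change. In the wild type library 1836 of 6648 genes were called higher (27.6%) and 525 lower (7.9%), and in the transgenic library 1223 of 6713 were called higher (18.2%) and 433 lower (6.45%). In both libraries alike, 686 genes were higher (10.8%) and 222 lower (3.5%). At 1.5-fold the counts were 218 higher (3.28%) and 125 lower (1.88%) in the wild type, 735 higher (10.9%) and 222 lower (3.31%) in the transgenic library, and 82 higher (1.29%) and 58 lower (0.914%) in both. Of the 6343 genes 5034 had the same sign in both libraries, which share no cells. Pearson's r between the libraries was 0.67 across genes, which are not independent replicates. The median gene stood at 0.16 and 0.15 on the log2 scale, and some of the most abundant transcripts, such as Iapp, were lower in members.

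Which direction is more common depends on the scaling. With TMM factors the median gene moved to 0.03 and 0.02, and 197 genes were higher and 469 lower in both libraries. The insulin share matters as well. Compared within 10 bins of insulin share, 118 genes were higher and 70 lower, of which 106 and 51 were among those called above. In these bins 672 of the 686 higher and 208 of the 222 lower genes kept their sign in both libraries. A bin can still hold unlike insulin shares, and how far members differed inside a bin was not tested. In the wild type the 90th percentile of insulin share in members was 50.6%, below the low-mitochondrial median of 51.7%. In the transgenic library these values were 63.0% and 60.5%.

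**Figure D2:**
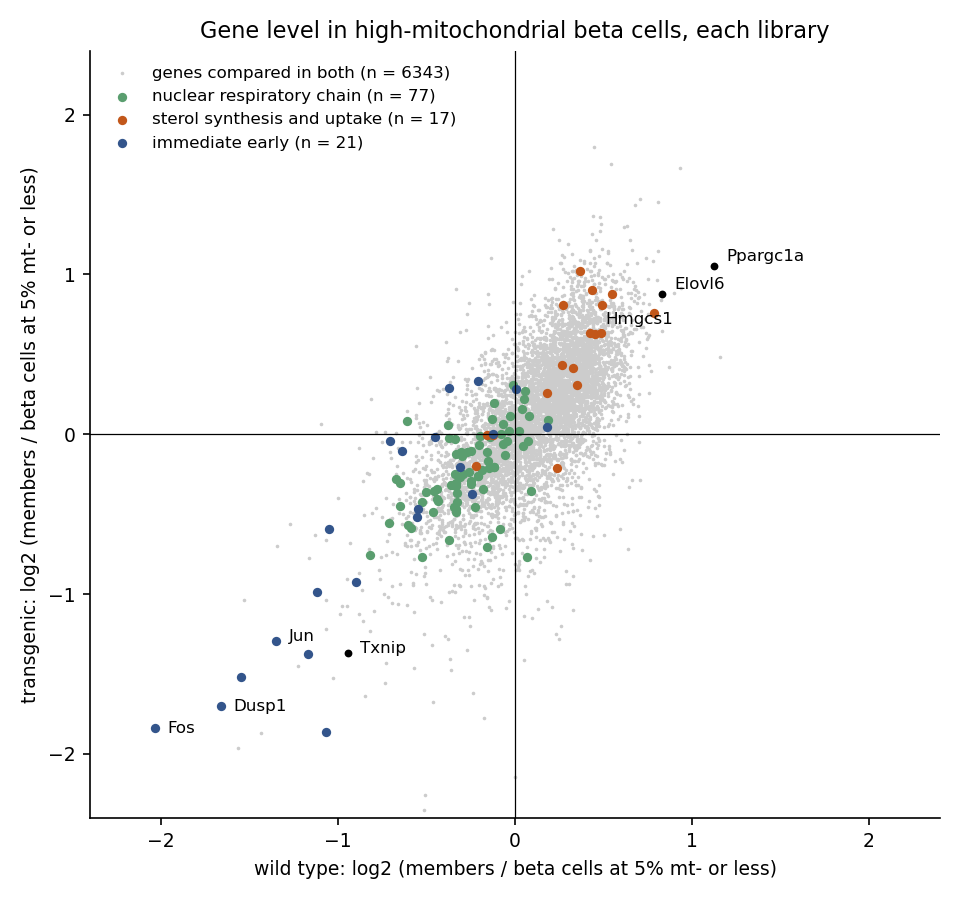
Each point is 1 of the 6343 genes compared in both libraries, with the log2 ratio of its level in members over low-mitochondrial beta cells in the wild type library on the x axis and in the transgenic library on the y axis. Immediate early genes (blue) reach down to -2.03 and -1.84 for Fos, sterol genes (orange) lie mostly to the upper right, and nuclear genes of the respiratory chain (green) lie mostly just below 0.

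The largest differences were in immediate early genes, which cells switch on within minutes of a stimulus and which include transcription factors and the phosphatases that end the response. Of 21 such genes compared in both libraries 11 were lower in members, where 3.5% of all genes were, and 0 higher, with median log2 ratios of -0.64 and -0.47, against 0.16 and 0.15 for all genes. Fos (chr12:85473890-85477273, plus strand, GRCm38), a subunit of the AP-1 transcription factor, stood at 243 CPM in members and 997 CPM in low-mitochondrial cells of the wild type library. In the transgenic library it stood at 208 and 744 CPM. Its log2 ratios were -2.03 (-2.12 to -1.95) and -1.84 (-2.09 to -1.60), from 1224 and 137 member UMIs. The difference lay in the upper tail of cells: wild type members had a median of 1 Fos UMI and low-mitochondrial cells of 2, while the 90th percentile was 6 and 40. In the transgenic library the medians were also 1 and 2, and the 90th percentiles 4.6 and 28.9.

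Jun, the partner of Fos in AP-1, stood at 531 against 1355 CPM and at 643 against 1580 CPM, with log2 ratios of -1.35 (-1.41 to -1.29) and -1.30 (-1.44 to -1.16). Dusp1, a phosphatase that switches off MAP kinases, had log2 ratios of -1.66 and -1.70. Ier2 had -1.55 and -1.52, Egr1 -1.17 and -1.37, Junb -1.12 and -0.99, and Zfp36, an RNA-binding protein that promotes the decay of short-lived messages, -1.07 and -1.86. Btg2, Klf2, Klf6 and Arc completed the 11. The group did not move as a whole: Fosb (0.00 and 0.28), Jund (0.18 and 0.05), Maff (-0.13 and 0.00) and Atf3 (-0.21 and 0.33) were not called in either library.

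Within bins of insulin share 9 of the 21 were called lower, where 70 of all 6343 genes were, with Fos at -1.57 and -0.97. Bins of insulin share and depth together were an alternative chosen after the data had been seen. There 6 were called lower, where 52 of all 6343 genes were, and the log2 ratios of Fos were -0.70 and -0.30. Depth and insulin share thus moved with the Fos difference, and their part in it was not tested further. The 86 and 15 cells just inside the threshold, with a median of 5.12% mt- in each library, had Fos at 199 CPM in the wild type and 86.6 CPM in the transgenic library. The 110 and 16 cells just outside it, with medians of 4.87% and 4.93%, had 307 and 236 CPM.

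The level of Fos fell over the bins of mt- share below the threshold and across it. The lowest bin, under 1% mt-, held 32 and 44 cells with 1645 and 1741 CPM, and the wild type value there was below that of the next bin. In the wild type library it was 2033 CPM in beta cells at 1% to 2% mt-, 1127 CPM at 2% to 3%, 737 CPM at 3% to 4%, 349 CPM at 4% to 5% and 235 CPM at 5% to 6%. In the transgenic library the same bins held 991, 538, 361, 249 and 173 CPM. Above 6% the wild type bins stayed between 184 and 349 CPM. The transgenic bins above 6% held 19, 7 and 3 cells and give no order.

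**Figure D3:**
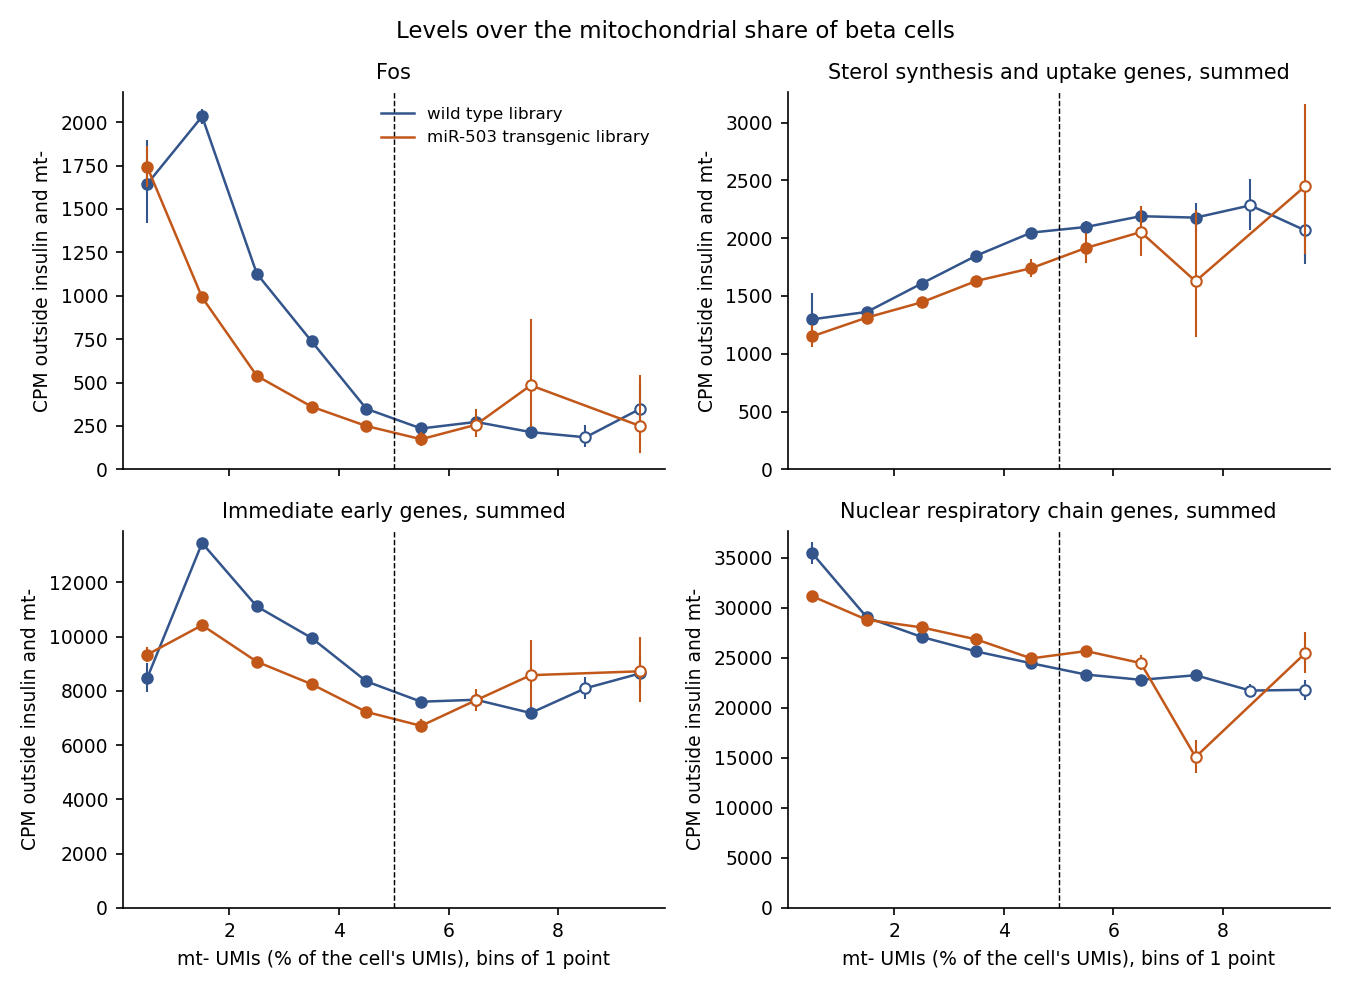
Levels (CPM outside insulin and mt-) of Fos and of the summed sterol, immediate early and nuclear respiratory chain genes in beta cells grouped into bins of 1 percentage point of mt- share (x axis, %). Vertical lines are exact 95% counting intervals, hollow points are bins under 20 cells and the dashed line is the 5% threshold; Fos falls from 2033 CPM at 1% to 2% in the wild type to 235 CPM at 5% to 6%, and the sterol genes climb from 1362 to 2097 CPM over the same bins.

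Since 11 of the 21 immediate early genes were lower, the promoters of the list were searched, whether or not a gene was called, in the RefSeq windows (GRCm38.p6) from 250 bases before to 50 after the start, on both strands. The cyclic AMP response element TGACGTCA was found for 3 of the 21 listed genes that had a window (Btg2, Dusp1 and Maff), against 4.57% of the 4985 compared genes with a window and 2.03% of all 27025 genes. Of the 180 genes lower in both libraries with a window 5.56% held it. The CArG box of serum response factor was found for 2 (Egr2 and Zfp36), against 1.91% of the compared genes and 1.81% of all. A match is a description of the letters only. The windows of 2 of the lowest genes follow, 5′ to 3′ on the minus strand of each gene, with the matched element in capitals. That of Dusp1 lies at chr17:26508423-26508722 and that of Zfp36 at chr7:28379179-28379478.
Dusp1: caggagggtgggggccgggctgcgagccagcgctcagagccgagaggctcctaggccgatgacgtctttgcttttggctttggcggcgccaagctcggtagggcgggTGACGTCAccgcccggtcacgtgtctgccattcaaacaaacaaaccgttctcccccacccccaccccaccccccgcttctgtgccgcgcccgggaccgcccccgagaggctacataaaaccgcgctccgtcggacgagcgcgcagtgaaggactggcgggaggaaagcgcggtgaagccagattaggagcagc
Zfp36: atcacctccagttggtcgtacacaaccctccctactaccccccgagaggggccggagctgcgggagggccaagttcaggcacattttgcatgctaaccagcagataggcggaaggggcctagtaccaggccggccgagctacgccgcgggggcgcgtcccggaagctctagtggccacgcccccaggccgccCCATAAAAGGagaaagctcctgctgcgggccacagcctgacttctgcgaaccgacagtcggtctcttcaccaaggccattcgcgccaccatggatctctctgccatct

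Other genes among the 15 lowest were Rasd1, a Ras-related protein (25.1 against 74.2 CPM and 18.2 against 71.0 CPM), C2cd4b (298 against 861 CPM and 385 against 791 CPM), Rgs16, a regulator of G protein signalling (log2 ratios -1.03 and -1.53), and Ddit4, an inhibitor of mTORC1 (-1.23 and -1.45). All 15 lowest genes kept their sign in both libraries under the 11 alternative settings that change a ratio, but their size did not hold. Within joint bins of depth and insulin share Ddit4 had -0.21 (-0.49 to 0.08) and -0.40 (-1.12 to 0.33), C2cd4b -0.41 and -0.33, and Rasd1 -0.45 and -0.96, and the intervals of Ddit4 in both libraries and of Arl4d in the transgenic library included 0. Txnip, which binds thioredoxin and is induced by glucose, stood at 159 against 306 CPM in the wild type and 121 against 313 CPM in the transgenic library. Its log2 ratios of -0.95 (-1.05 to -0.84) and -1.37 (-1.70 to -1.05) were -0.71 and -0.87 within bins of insulin share, and -0.20 (-0.32 to -0.08) and -0.44 (-0.78 to -0.11) within the joint bins. Of 22 antioxidant genes compared 6 were lower in both libraries, where 3.5% of all genes were, and 0 higher, though 3 were higher in the transgenic library alone. Among the lower were the peroxiredoxins Prdx4 (-1.07 and -1.22) and Prdx2 (-0.61 and -0.70) and thioredoxin Txn1 (-0.81 and -0.49). Within bins of insulin share 2 of the list were called lower, where 70 of all 6343 genes were. Of 14 heat shock genes 2 were lower, where 3.5% of all genes were, and 0 higher. The lower ones were the small chaperone Hspb1 (-0.67 and -0.75) and Hspa1a (-0.45 and -0.49).

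Nuclear genes of the respiratory chain were not higher along with the mitochondrial transcripts. Of 77 nuclear genes of complexes I to V compared, 0 were higher in both libraries and 19 lower, where 3.5% of all genes were lower, with median log2 ratios of -0.25 in each library. Their summed level was 23094 CPM in members and 26487 CPM in low-mitochondrial cells of the wild type, and 25005 against 28209 CPM in the transgenic library. Ndufs8, an iron-sulfur subunit of complex I, stood at 41.0 against 72.4 CPM and at 50.1 against 84.6 CPM (log2 -0.82 and -0.76). Uqcrb of complex III (-0.60 and -0.57) and Ndufb3 (-0.59 and -0.58) and Ndufb6 (-0.71 and -0.55) of complex I were lower by similar amounts. The insulin share moved with this group: within its bins the medians were -0.01 and -0.04, beside 0.08 and 0.07 for all genes. Of the 77, 0 were called there, where 70 of all 6343 genes were lower. With the mt- share taken outside insulin 2 were called lower, where 63 of 6241 genes were.

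The other nuclear genes that serve mitochondria differed among themselves. Of 46 mitochondrial ribosomal protein genes 3 were lower, beside 3.5% of all genes, and 0 higher, with medians of -0.17 and -0.20. Again 0 were called within bins of insulin share, where 70 of all 6343 genes were lower. Of 24 chaperone and import genes 2 were higher, the protease Lonp1 (65.0 against 47.4 CPM and 57.7 against 37.2 CPM, log2 0.45 and 0.63) and the chaperone Hspa9 (0.38 and 0.52), and 0 lower, a count no larger in share than the 10.8% of all genes. Neither Hspd1 (0.01 and -0.29) nor Hspe1 (-0.29 and -0.19), the chaperonins usually followed as targets of the mitochondrial unfolded protein response, was called. Ssbp1, which binds single-stranded mitochondrial DNA (-0.56 and -0.59), and Trmt10c, a subunit of mitochondrial RNase P (-0.82 and -1.23, from 64 and 7 UMIs), were lower.

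Ppargc1a (chr5:51454250-51567726, minus strand), the coactivator PGC-1alpha that drives mitochondrial gene programmes, had the highest ratio of all genes by the library nearer 0. It stood at 54.5 against 25.03 CPM in the wild type and at 39.5 against 19.0 CPM in the transgenic library, with log2 ratios of 1.12 (0.92 to 1.32) and 1.05 (0.43 to 1.62). The transgenic value rests on 26 UMIs. It was -0.03 with members above 6% mt- and -0.17 with the mt- share taken outside insulin, while the wild type values there were 1.35 and 1.36. In the wild type its level climbed over the bins, from 9.87 CPM at 1% to 2% mt- through 34.8 CPM at 4% to 5% to 66.6 CPM at 6% to 7%. It was 49.3 CPM at 7% to 8%, and 84.2 and 58.1 CPM in the 18 and 13 cells above. The transgenic level went from 14.6 CPM at 1% to 2% to 49.5 CPM at 5% to 6%, and was 23.9 CPM at 6% to 7%, from 4 UMIs. Of 31 genes of the citric acid cycle and its carriers, 3 were higher and 2 lower, beside 10.8% and 3.5% of all genes, so the count is no result about the list. The citrate carrier Slc25a1 (0.56 and 0.48), Dld (0.43 and 0.71) and Got2 (0.43 and 0.54) were the higher ones, and the ADP/ATP carrier Slc25a5 (-0.38 and -0.47) was among the lower.

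Genes of cholesterol synthesis and uptake were higher in members. They are controlled by SREBP-2, a membrane-bound factor released when the endoplasmic reticulum runs low in sterol. Of 25 listed genes 17 were compared in both libraries, 9 were higher and 0 lower, where 10.8% of all genes were higher and 3.5% lower. The median log2 ratios were 0.35 and 0.63, against 0.16 and 0.15 for all genes. Hmgcs1 (chr13:119690379-119708260, plus strand), which makes HMG-CoA, stood at 434 against 318 CPM in the wild type and at 316 against 204 CPM in the transgenic library. Its log2 ratios were 0.45 (0.38 to 0.52) and 0.63 (0.42 to 0.83). Srebf2, which encodes SREBP-2 (0.49 and 0.63), and Lss, which closes the sterol rings (0.55 and 0.88), were higher too. So were Cyp51 (0.37 and 1.02), Fdft1 (0.33 and 0.41) and the sterol carrier Stard4 (0.49 and 0.81). Fdps (-0.16 and -0.01), Pmvk (-0.13 and -0.01) and Ebp (-0.22 and -0.20) were not called, so the pathway was not higher at each step.

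The sterol difference was smaller within bins of insulin share. Within those bins the medians were 0.24 and 0.35, above the 0.08 and 0.07 of all genes, but 0 of the 17 were called. Of all 6343 genes 118 were called higher there. Hmgcs1 then had 0.25 (0.17 to 0.32) and 0.22 (0.01 to 0.43). With TMM factors 3 were called, where 197 of all 6343 genes were higher. With a fold of 1.5 only 1 was called, where 82 of all genes were higher. Per cell, members had nearly the same number of sterol UMIs as other beta cells: means of 21.9 against 20.5 in the wild type and 17.2 against 17.1 in the transgenic library. Since all UMIs outside insulin and mt- were fewer in members, a higher CPM and a like number per cell stand side by side. Over the bins of mt- share the summed sterol level in the wild type climbed from 1362 CPM at 1% to 2% to 2049 CPM at 4% to 5%, and lay between 2068 and 2284 CPM above. Just inside the threshold it was 1993 CPM and just outside 2161 CPM.

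The promoter of Hmgcs1 is shown as that of the marker gene of this group. It was the only 1 of 17 sterol genes with a window that held the sterol regulatory element core TCACNCCAC on either strand, against 1.44% of 27025 genes. The window lies at chr13:119690101-119690400 on the plus strand of GRCm38.p6 (RefSeq), with the element in capitals.
Hmgcs1: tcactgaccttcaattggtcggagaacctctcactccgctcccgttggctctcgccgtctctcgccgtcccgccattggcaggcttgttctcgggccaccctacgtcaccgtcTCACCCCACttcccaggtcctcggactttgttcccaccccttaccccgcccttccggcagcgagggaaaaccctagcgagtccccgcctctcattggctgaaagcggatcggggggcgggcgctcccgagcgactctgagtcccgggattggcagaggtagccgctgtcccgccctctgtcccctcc

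Fatty acid synthesis genes, under the related factor SREBP-1, were compared in 8 cases, with medians of 0.45 and 0.44. Over all genes the medians were 0.16 and 0.15, and 10.8% were called higher and 3.5% lower in both libraries. The elongase Elovl6, at 45.3 against 25.5 CPM and 37.9 against 20.7 CPM (log2 0.83 and 0.88), and Acly (0.42 and 0.48), which makes cytosolic acetyl-CoA from citrate, were higher in both libraries, and 0 were lower. Fasn (0.65 and 0.36) and Srebf1 (0.49 and 0.59) were called in the wild type only. That the libraries differ for these genes was not tested.

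The integrated stress response, which mitochondrial faults can start through ATF4 and ATF5, gave different counts in the libraries. In the wild type 6 of 33 genes were higher and 2 lower, and in the transgenic library 10 of 32 were higher and 2 lower, with 16 and 26 above 0. Of the 32 compared in both 4 were higher and 1 lower, where 10.8% of all genes were higher and 3.5% lower, with medians of -0.00 in the wild type and 0.32 in the transgenic library, against 0.16 and 0.15 for all genes. That the libraries differ was not tested. Atf5 itself (chr7:44812256-44816658, minus strand) stood at 521 against 430 CPM in the wild type, a log2 ratio of 0.28 (0.22 to 0.34) below the fold required, and at 399 against 301 CPM in the transgenic library, 0.41 (0.23 to 0.58). Atf4 stood at 393 against 428 CPM and 431 against 477 CPM (-0.12 and -0.15). Ddit3, the death-associated factor CHOP, had -0.07 and 0.10. The 4 higher genes were Vldlr (0.63 and 0.67), Cebpg (0.40 and 0.61), and the amino acid transporters Slc7a1 (0.37 and 0.85) and Slc7a5 (0.34 and 0.51), and the lower was Ddit4. Asns (-0.20 and 0.03), Chac1 (-0.15 and 0.16) and Trib3 (-0.10 and -0.32), frequent ATF4 targets, were not called. Within bins of insulin share 1 gene of the list was called lower, where 70 of all 6343 genes were. The wild type value of Slc7a1 turned to -0.04 within joint bins of depth and insulin share.

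Of 25 genes of the endoplasmic reticulum and its unfolded protein response 4 were higher in both libraries and 0 lower, beside 10.8% of all genes higher, with medians of 0.24 and 0.20 beside 0.16 and 0.15. These were the chaperones Hyou1 (0.43 and 0.50), Canx (0.36 and 0.41) and Calr (0.36 and 0.34), and Syvn1 (0.44 and 0.42), the ubiquitin ligase that clears misfolded proteins. Hspa5, the main chaperone of this compartment, had 0.23 and 0.35. With TMM factors the medians were 0.10 and 0.07, with 0 called higher and 1 lower, where 197 and 469 of all 6343 genes were. Within bins of insulin share 0 were called, where 118 of all genes were higher and 70 lower.

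The 15 highest genes were of mixed function. After Ppargc1a they included Hpgds, a prostaglandin D synthase (42.8 against 22.4 CPM and 37.9 against 11.9 CPM, log2 0.93 and 1.67), Osbpl3, a lipid-binding protein of the oxysterol-binding family (0.90 and 0.88), Plagl1, an imprinted zinc finger factor (0.82 and 0.84), the G protein regulators Rgs3 (0.81 and 1.46) and Rgs7bp (0.94 and 0.92), and Vars, the valyl-tRNA synthetase (0.75 and 0.75). Of the other genes, Ppp6r1, Pitpnm2, Gprc5c, Hspa12a, Fam83g and Dcbld1 lay between 0.74 and 0.81 in the wild type and between 0.82 and 1.15 in the transgenic library. All had under 100 CPM. The signs of Gprc5c and Dcbld1 in the transgenic library turned under 1 alternative each (-0.04 and -0.33). Insr, the insulin receptor, stood at 29.2 against 19.2 CPM (0.61, 0.34 to 0.87) in the wild type and at 22.8 against 16.8 CPM (0.44, -0.41 to 1.17) in the transgenic library, where it was not called.

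RNAs that stay in the nucleus were compared in 6 cases. In both libraries 3 were higher and 0 lower, where 10.8% of all genes were higher. Neat1, the scaffold of paraspeckles, stood at 734 against 466 CPM and 710 against 442 CPM (0.66 and 0.68), and Mirg (0.49 and 0.98) and Kcnq1ot1 (0.52 and 0.41) were also higher. Malat1, the most abundant of them, was nearly level, with 0.08 in each library. Compared within bins of insulin share, 1 of the 6 was called higher, where 118 of all 6343 genes were. Interferon-induced genes were called in both directions. Of 9 compared 3 were higher, including Parp14 (0.65 and 1.21), where 10.8% of all genes were. Another 2 were lower, Cxcl10 (-0.57 and -1.11) and Ifi27 (-0.62 and -0.69), where 3.5% of all genes were. Within bins of insulin share 0 of the 9 were higher and 1 lower, where 118 and 70 of all 6343 genes were, with medians of -0.01 and 0.15.

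Beta cell identity genes differed little in the plain comparison. Of 19 compared 1 was higher and 1 lower, beside 10.8% and 3.5% of all genes, so the count is no result about the list. The higher was Foxo1 (0.43 and 0.45) and the lower Iapp, the amylin gene, whose product is stored with insulin. Iapp stood at 83478 against 110571 CPM and at 83142 against 109545 CPM (-0.41 and -0.40). Its ratios within bins of insulin share were -0.08 and -0.01. Pdx1 (0.07 and 0.05) and Nkx6-1 (0.08 and 0.05) were level. In the same bins Ucn3, level in the plain comparison (-0.05 and 0.04), had 0.31 (0.24 to 0.38) and 0.45 (0.28 to 0.63). Slc2a2 had 0.33 (0.21 to 0.44) and 0.54 (0.26 to 0.83), so its level was higher in members within these bins. Ucn3 passed the required fold in the transgenic library only. Of the 19 identity genes 2 were called higher and 0 lower in these bins, where 118 and 70 of all 6343 genes were. The medians of the list there were 0.20 and 0.25, beside 0.08 and 0.07 for all genes. Joint bins of depth and insulin share gave 3 higher and 0 lower, where 85 and 52 of all genes were. Of 24 genes of granules and exocytosis 1 was higher in the plain comparison, the calcium sensor Syt7 (0.51 and 0.60), and 0 lower. This count too is no result about the list, beside 10.8% of all genes higher. Of 77 cytosolic ribosomal protein genes 0 were called in either direction, with medians of 0.01 in each library. Cdkn1a, an inhibitor of the cell cycle, had -0.11 and -0.05.

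**Figure D4:**
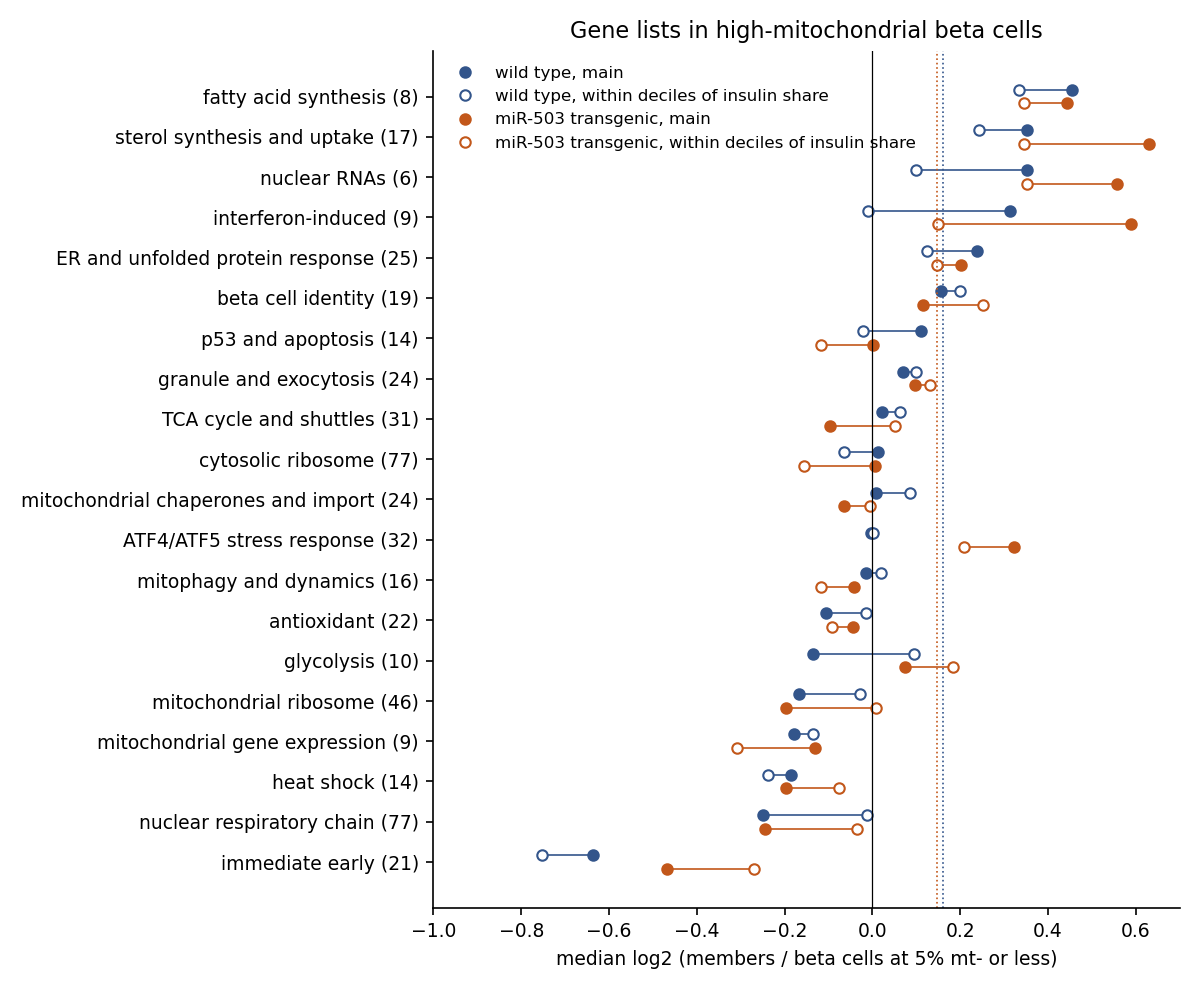
Median log2 ratio (x axis) of members over low-mitochondrial beta cells for 20 gene lists, with the number of genes compared in brackets; blue is the wild type and orange the transgenic library, filled points are the main comparison and hollow points the comparison within 10 bins of insulin share. Dotted lines are the medians of all genes in the main comparison, 0.16 and 0.15, which were 0.08 and 0.07 within the bins. The immediate early list stays lowest in the wild type at -0.64 and -0.75, while the nuclear respiratory chain moves from -0.25 to near 0.

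The called genes differed in length from all genes compared, and the lower ones also in abundance. Lengths were taken from GENCODE vM21 (GRCm38) and were found for 6339 of the 6343 genes. The 686 higher genes spanned a median of 47.0 kb and the 222 lower genes 6.43 kb, against 23.6 kb for all. In low-mitochondrial cells the lower genes had median levels of 129 and 146 CPM, against 49.4 and 47.5 CPM for all and 52.2 and 46.4 CPM for the higher. From the shortest to the longest of 5 equal groups, the median log2 ratio climbed through -0.07, 0.04, 0.16, 0.26 and 0.32 in the wild type and -0.06, 0.02, 0.15, 0.26 and 0.33 in the transgenic library. The share of genes called higher in both libraries went from 2.76% to 20.5%, and that of genes called lower from 9.31% to 0.315%. Within bins of insulin share the slope was less steep but kept its direction, from -0.02 to 0.15 and from -0.03 to 0.15.

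The gene lists differ in length and can be read beside this. Immediate early genes compared had a median span of 4.24 kb, nuclear respiratory chain genes 7.46 kb, sterol genes 16.1 kb and fatty acid synthesis genes 25.9 kb. Cytosolic ribosomal protein genes, with a median span of 3.29 kb, were level. By exon length sterol genes had a median of 4.59 kb, close to the 4.57 kb of all genes. Their median log2 ratios of 0.35 and 0.63 stand beside 0.04 and 0.02 for all genes in the group of like span, and beside 0.19 and 0.18 in the group of like exon length. The part of length in any list's values was not tested.

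**Figure D5:**
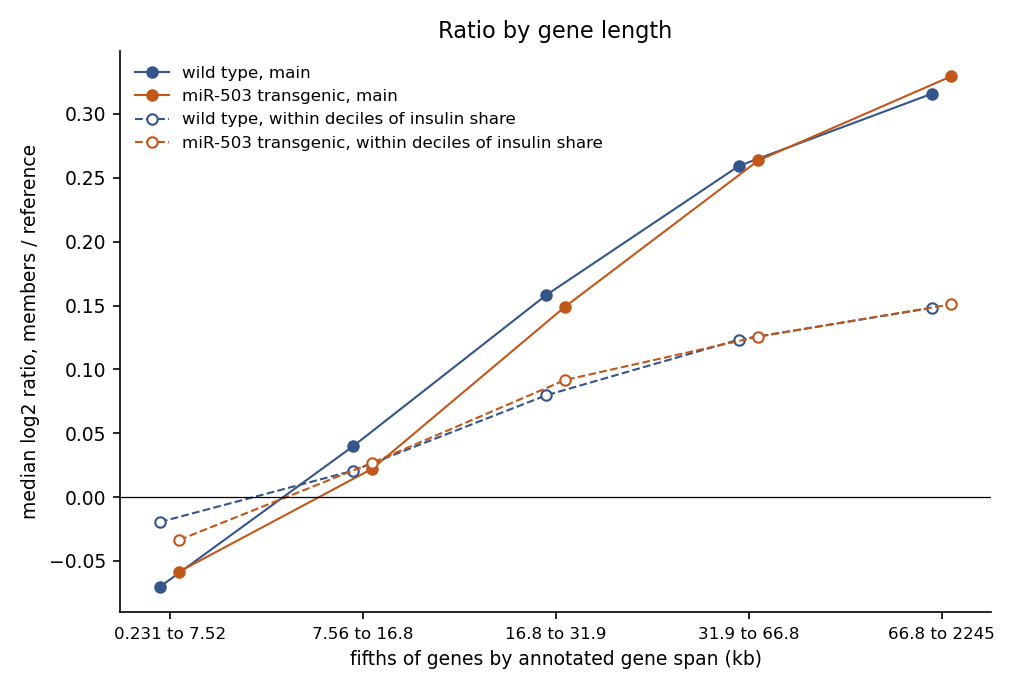
Median log2 ratio (y axis) of members over low-mitochondrial beta cells in 5 equal groups of genes ordered by annotated span (x axis, kb), for the wild type (blue) and transgenic (orange) library. Filled points are the main comparison, which climbs from -0.07 to 0.32 and from -0.06 to 0.33, and hollow points the comparison within 10 bins of insulin share, which climbs from -0.02 to 0.15 and from -0.03 to 0.15.

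Members varied among themselves. Those with insulin under 40% of UMIs were 256 of 490 in the wild type (52.2%), against 272 of 2805 low-mitochondrial cells (9.70%), and 18 of 75 (24.0%) against 42 of 2632 (1.60%) in the transgenic library. Wild type members under 40% insulin had Fos at 263 CPM and those at 40% or more at 213 CPM. Both were below the 616 and 1047 CPM of low-mitochondrial cells with the same insulin ranges. Hmgcs1 stood at 457 and 397 CPM in these wild type members, against 364 and 312 CPM. Ppargc1a stood at 46.4 and 67.1 CPM, against 24.2 and 25.1 CPM.

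The few members under 2000 genes stood apart from the rest. In the wild type these 14 cells had a median insulin share of 54.6%, Fos at 775 CPM and Malat1 at 42944 CPM, against 238 and 31499 CPM in the other 476 members. In the transgenic library the 12 such cells had Malat1 at 57172 CPM and summed cytosolic ribosomal protein genes at 76558 CPM, against 32676 and 163434 CPM in the other 63. Their summed genes of the endoplasmic reticulum stood at 34278 against 17755 CPM. With cells under 2000 genes left out of members and of low-mitochondrial cells (2729 and 2599 of which remained), an alternative added after the data had been seen, 671 genes were higher and 232 lower in both libraries, close to the counts with them.

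Between genotypes, members had 1 library each. At 1.5-fold, 135 of 6672 genes were higher in transgenic than in wild type members (2.02%) and 193 lower (2.89%), with 75 cells behind the transgenic sums. Of these, 113 and 166 had the same sign in low-mitochondrial beta cells. Whether members and low-mitochondrial cells differed in the genotype ratio was read from the difference of the log2 ratios, whose counting interval excluded 0 for 360 genes above (5.74%) and 193 below (3.08%) of 6270. Largest above were Chd5, a chromatin remodeller, with a difference of 1.35 (0.71 to 1.997), Fam98c with 1.246 (0.61 to 1.88) and Snhg11 with 1.24 (0.52 to 1.958). Largest below were Gskip, which binds the kinase GSK-3, with -2.14 (-3.58 to -0.70), Mkl2, a coactivator of serum response factor, with -1.53 (-2.73 to -0.33), and Ptcd2 with -1.48 (-2.67 to -0.29). These 3 rest on 4, 6 and 6 UMIs in transgenic members. In wild type and transgenic members Fos stood at 243 and 208 CPM, and the summed sterol genes at 2138 and 1961 CPM.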

How the data were processed

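Per the labels' protocols, trypsin with EDTA was used to dissociate the islets, and libraries were made on the 10x Chromium system. The authors deposited filtered tables of UMI counts for 27998 genes. The submitters' processing notes name Cell Ranger 2.1.0, STAR 2.5.1b and mm10. The libraries held 104677537 and 109243270 UMIs, from 5727 to 88243 and from 6671 to 94943 per barcode.

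The members, gene lists and thresholds were chosen with earlier results of these data known. Counts were summed over members and over low-mitochondrial beta cells of each library. Genes of insulin, the mt- genes, Gcg, Sst and Ppy stayed out of the comparison. Ratios used CPM outside insulin and mt-, with exact conditional binomial intervals at 95% for summed counts. Intervals within bins, and those of differences between ratios, were symmetric on the log scale and not exact. Cell-to-cell variation is not in these intervals, and a summed level cannot tell fewer expressing cells from less RNA in each. Named genes were the 15 highest and 15 lowest by the library nearer 0 among genes called in both, up to 4 of each list, the 6 largest and 6 lowest genotype differences and some genes of prior interest. Further list members were named after their values were seen, to complete the counts given, and some members are not reported here by name. Genes over 5 times more abundant in non-beta cells, which free RNA could carry, were not named: 4 of the 222 lower genes and 0 of the 686 higher ones were so. Scrublet's automatic threshold marked 2 and 3 cells and so had not worked, and doublets were kept in the main comparison, with the top 4% removed as an alternative. Alternatives were TMM factors, per-cell means, bins of depth, of insulin share and of both, other limits on mt- and insulin, other gene filters and a fold of 1.5. On simulated counts of 6096 genes the calls recovered 11.1%, 54.5% and 83.3% of genes changed by the main fold, 1.5-fold and 2-fold, with 1 of 5901 unchanged genes called. These counts held counting error only, with no cell-to-cell variation and no difference in insulin share between the sets. They therefore do not give the rate of false calls in the real data.

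Python 3.11.15, numpy 2.4.6, scipy 1.17.1, pandas 2.3.3, scanpy 1.11.5, R 4.3.3 and edgeR 4.0.16 (TMM factors only) were used.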

Additional observations from a re-analysis of the deposited data

Results flagged for a closer look

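Genes called in opposite directions in the libraries numbered 5 of 6343, and whether the genotypes differ was not tested, since each has 1 library. Mapkapk2, a stress kinase, stood at 62.1 CPM in members against 46.2 CPM in the wild type and at 22.8 against 39.2 CPM in the transgenic library, a difference of log2 ratios of -1.21. Ahcy, which hydrolyses S-adenosylhomocysteine, stood at 29.2 against 23.3 CPM and at 15.2 against 28.1 CPM, also a difference of -1.21. For Cnot3, a subunit of the deadenylase complex, the difference was -1.04 (43.8 against 34.9 CPM and 25.8 against 42.3 CPM). For Cxxc1, which binds unmethylated CpG, it was -1.42 (31.4 against 25.1 CPM and 13.7 against 29.2 CPM). Fam98c went the other way, with 19.3 against 24.3 CPM and 41.0 against 21.8 CPM, a difference of 1.246. In the order given, the transgenic values rest on 15, 10, 17, 9 and 27 member UMIs. The transgenic interval limits nearer 0 were -0.06, -0.0006, -0.03, -0.17 and 0.30 on the log2 scale. For Fam98c the wild type limit nearer 0 was -0.03.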

How the results depend on the processing

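The plain comparison gave 686 higher and 222 lower genes, 9 sterol genes and 5 ATF4 and ATF5 response genes called in both libraries. With TMM factors these counts were 197, 469, 3 and 3. Within bins of insulin share they were 118, 70, 0 and 1, and within joint bins of depth and insulin share, chosen after seeing the data, 85, 52, 0 and 1. With the mt- share taken outside insulin they were 181, 63, 3 and 1, and with insulin at 40% or more 291, 104, 3 and 3. Members above 6% mt- gave 351 higher, 127 lower and 2 response genes, and a reference at 3% mt- or less 1094 higher and 9 response genes. A fold of 1.5 gave 82, 58, 1 and 2, and per-cell means gave 139 lower. Member shares were 6.65% and 1.07% above 6% mt-, and 8.46% and 2.15% with insulin at 40% or more. The cause of these changes was not tested. Values that turned sign were Slc7a1 in the wild type (-0.039) and Gprc5c in the transgenic library (-0.036) within joint bins, and, in the transgenic library, Ppargc1a (-0.029) and Mul1 (-0.19) above 6% mt-, and Ppargc1a (-0.17), Dcbld1 (-0.33), Mul1 (-0.035) and Foxo1 (-0.017) with the mt- share outside insulin. Depth bins, doublet removal, no CPM minimum and cells of at least 2000 genes kept the higher and lower counts within 1.5 times. With 75 transgenic members, low genes there rest on few UMIs.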

Other observations

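The 12 wild type and 5 transgenic beta cells above 10% mt- had medians of 2475.5 and 1847 genes. Their summed sterol genes stood at 2751 and 2270 CPM, and Fos at 311 CPM in the wild type and at 0 in the transgenic library. Low-mitochondrial beta cells under 2000 genes, 76 in the wild type library, had Malat1 at 14690 CPM, against 42944 CPM in the 14 members of like complexity. Among members of the mitochondrial quality control list, Map1lc3b, which marks autophagosomes, had log2 ratios of -0.44 and -0.47, and Mul1, a ubiquitin ligase of the outer mitochondrial membrane, 0.39 and 0.37.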
